A study of Mus musculus with 1920 samples.

Results

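The fatty acid binding proteins Fabp1, Fabp2 and Fabp6, the apolipoproteins Apoa1, Apoa4, Apob and Apoc3, and the lipid-handling genes Mttp, Dgat1 and Cd36 were followed through single intestinal stem cells (ISCs) of young and aged mice. They are 10 of the 55471 genes in the count table, chosen by name, and each symbol occurred once in it. Small intestine of 3 young and of 4 aged mice (labelled Old) was the source of the cells, which were sorted one by one for a high green fluorescent signal from the Lgr5 locus, the receptor gene that marks ISCs at the crypt base. All 7 mice carried the allele B6.129P2-Lgr5tm1(cre/ERT2)Cle/J, in which a fluorescent reporter and a tamoxifen-inducible Cre sit in the Lgr5 gene, and no treatment is named for them. Their ages in weeks stand in none of the sources used. This reporter is known to be silent in part of the crypts, so the sort samples the crypts that express it. The design asks how the expression of sorted ISCs differs between young and aged mice.

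Filtering at 1000 detected genes removed 84 cells and kept 1836, 160 to 376 per mouse, with a median of 305492 reads per cell. Lgr5 was detected in 93.1% to 99.5% of the cells of each mouse and Olfm4, another ISC marker, in 99.7% to 100%. The median Lgr5 level per cell was 363 to 407 CPM (reads scaled to the same total in each library) in young and 176 to 326 in aged mice, without overlap. How many of all genes separate by their median was not counted. In the reads summed per mouse Lgr5 overlapped, at 335 to 454 CPM in young and 172 to 363 CPM in aged mice. Each cell was also assigned to the marker list with its highest mean expression, with lists that hold none of the 10 genes. By this rule 1544 cells (84.1%) were led by ISC markers and 60 (3.27%) by markers of enterocytes, the absorptive cells of the villus. ISC-led cells made up 86.3% to 92.7% of the cells of young mice, 88.9% of those of aged mouse 1 and 72.7% to 77.8% of those of the other aged mice. Enterocyte-led cells made up 2.5%, 0.27% and 1.86% of the cells of young mice 1 to 3, and 1.06%, 3.23%, 4.76% and 8.47% of the cells of aged mice 1 to 4. Aged mice 2, 3 and 4 therefore held larger shares than any young mouse, and aged mouse 1 did not. The same held for Paneth-led cells. They made up 7.5%, 5.68% and 1.86% of the cells of young mice 1 to 3, and 6.88%, 15.6%, 7.94% and 11.2% of those of aged mice 1 to 4. Markers of other cells were summed in the same way. The summed level of the 9 enteroendocrine markers was 137 to 151 CPM in young and 138 to 721 in aged mice, and that of the 8 goblet markers 412 to 1163 and 629 to 2916. The 16 enterocyte markers together ranged from 1893 to 2433 CPM in young and from 1662 to 2874 in aged mice, so these sums overlapped. Gene by gene, in the edgeR fit of the reads summed per mouse, 13 of the 16 enterocyte markers had a fold change of aged over young above 0, with a median log2 fold change of 1.02. The medians of the enteroendocrine and tuft markers were 1.37 and 1.03. Of 20 ISC markers 17 were below 0, 4 of them without overlap, with a median of -0.25. Of all genes tested 4.09% were lower in aged mice without overlap. None of these marker genes passed the threshold. The 8 immune markers together were low but separated the groups, at 7.16 to 10.9 CPM in young and 15.5 to 35.7 in aged mice. None of these lists had a gene at 0 throughout. Their part in the results was not tested.

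Dietary fat reaches the enterocyte as fatty acids and monoglycerides. Cd36 at the cell surface takes part in uptake, the cytosolic fatty acid binding proteins carry the fatty acids, Dgat1 completes triglyceride synthesis, and Mttp loads the lipid onto Apob to form the chylomicron, which also carries Apoa1, Apoa4 and Apoc3. Fabp6 differs from Fabp1 and Fabp2 in that it binds bile acids and is a gene of the ileum. The program belongs to mature enterocytes, and crypt base stem cells are not known for it.

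The 10 genes fell into a broadly expressed and a concentrated kind. Apob, Dgat1, Fabp2 and Mttp had reads in most cells, and only 2.18%, 9.1%, 12.1% and 21.1% of cells lacked them. Their medians over all cells were 245, 112, 62.1 and 32.3 CPM, the CPM being taken on each cell's own total. Apoa1, Fabp1, Apoa4, Fabp6, Apoc3 and Cd36 had a median of 0, with no read in 55%, 57.2%, 58.3%, 79.9%, 82.8% and 89.2% of cells. A few cells nevertheless held very large amounts of them. The highest cell reached 37740 CPM for Apoa4 and 29871 for Fabp1, against 16761 for Fabp6 and 16131 for Apoa1. Cd36 stayed far lower, with a maximum of 709 CPM.

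Concentration was also measured as the share of the CPM summed over the cells of a mouse that its highest 5% of cells held. For Fabp6 this share was 95.2% to 99.8% over the 7 mice, for Apoa4 88.1% to 97.5%, for Fabp1 74.9% to 93.5% and for Apoa1 70.1% to 97.5%. For Cd36 it was 76.4% to 100% and for Apoc3 77.7% to 96.3%. For Apob it was only 17.5% to 47.9% and for Dgat1 17.4% to 29.3%. Nearly all Fabp6 message in these sorts thus lay in few cells, and most Apob and Dgat1 message was spread over the rest. Fabp2 and Mttp lay between, at 35.4% to 69.8% and 26.7% to 44.7%.

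**Figure D1:**
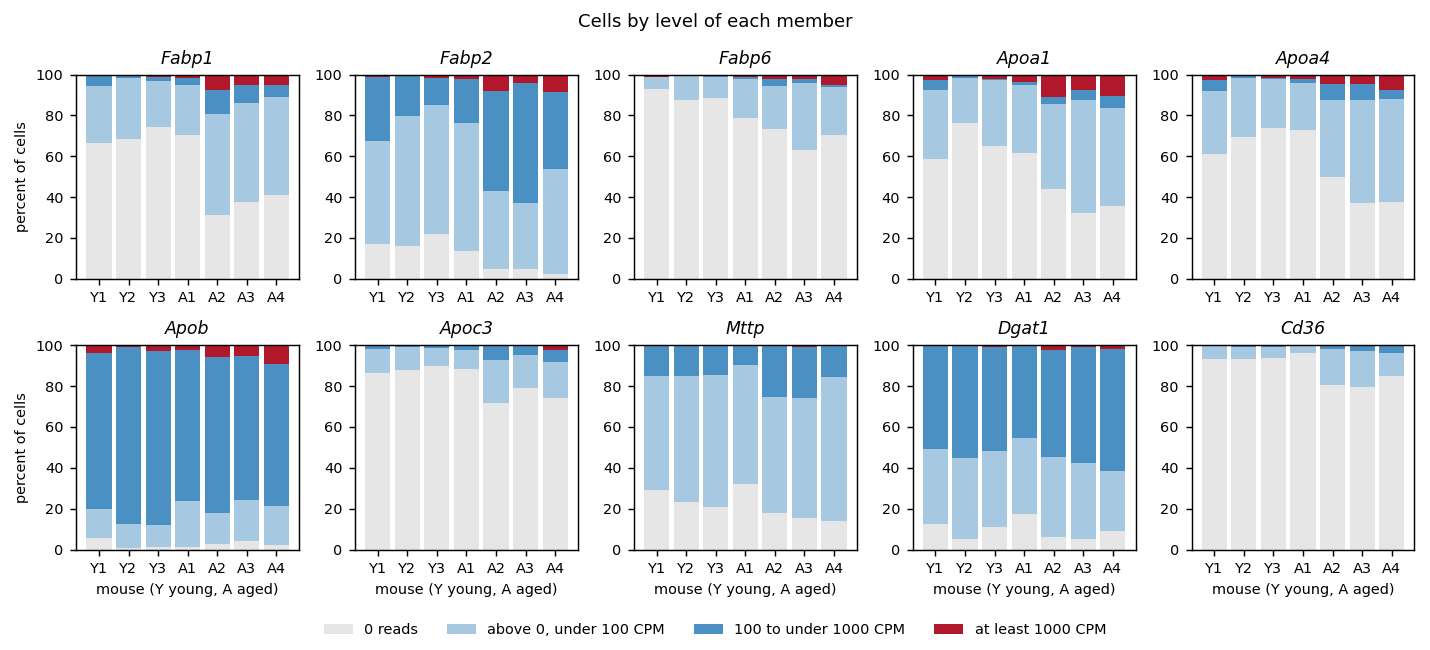
Percent of cells of each mouse with 0 reads, above 0 and under 100 CPM, 100 to under 1000 CPM, and at least 1000 CPM of each gene, for young mice Y1 to Y3 and aged mice A1 to A4. Apob and Dgat1 have few cells at 0, Cd36 has no cell at 1000 CPM, and the top class for Apoa1 reaches 10.8% in aged mouse 2.

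The CPM and shares of cells above, and the cut of 1000 CPM, were not corrected for gene length. Merged exons ran from 479 bases for Fabp6 to 13934 for Apob, so those values of different genes also carry length. To order the genes, levels were taken per length, as CPM of the reads summed per mouse divided by kilobases of merged exons. The median over the 7 mice was 124 for Apoa1, 122 for Fabp2, 74.6 for Fabp1, 71.7 for Fabp6, 50.2 for Apoa4, 49.5 for Dgat1, 22.1 for Apob, 9.36 for Mttp, 8.06 for Apoc3 and 0.844 for Cd36. The first 4 neighbours in this order were not separated by their spread, since Apoa1 stood above Fabp2 in 2 of 7 mice and each of the next 3 steps held in 5. Dgat1 stood above Apob, Apob above Mttp, and Apoc3 above Cd36 in 7 of 7 mice, whereas Mttp exceeded Apoc3 in 4. Dgat1 varied least between mice, with a highest value 1.5 times its lowest, and Fabp6 most, at 21.8 times.

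The start regions of 8 of the 10 genes were matched in RefSeq (GRCm38.p6). In the 250 bases before the start, 5 short motifs were searched on both strands by exact letters. TATAAA was found in the promoters of Fabp1, Fabp6 and Apob and in 12.4% of all 32851 promoters. GTTAAT, a core of the site of the hepatocyte nuclear factor 1 family, was found before Fabp1 and in 6.43% of all. TTTATGG, a form of the Cdx site, was found before Fabp1 and in 2.43% of all. A core of the site of hepatocyte nuclear factor 4, AAGTCCA, was found before none of the 8 genes and in 3.36% of all promoters. The Gata site, searched as AGATAA, was likewise found before none of them and in 9.99% of all. The 3 promoters that hold a TATAAA are shown because they belong to an abundant concentrated gene, the most concentrated one and a broad one. They lie at chr6:71199629-71199878 on the + strand for Fabp1, chr11:43601563-43601812 on the - strand for Fabp6 and chr12:7977427-7977676 on the + strand for Apob. Each is written 5′ to 3′ and ends at the base before the start, and capitals mark the motifs on either strand.
Fabp1: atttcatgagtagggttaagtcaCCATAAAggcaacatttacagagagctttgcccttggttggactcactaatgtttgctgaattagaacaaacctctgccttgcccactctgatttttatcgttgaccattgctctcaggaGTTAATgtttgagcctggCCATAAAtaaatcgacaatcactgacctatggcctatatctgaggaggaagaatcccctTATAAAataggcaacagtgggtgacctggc
Fabp6: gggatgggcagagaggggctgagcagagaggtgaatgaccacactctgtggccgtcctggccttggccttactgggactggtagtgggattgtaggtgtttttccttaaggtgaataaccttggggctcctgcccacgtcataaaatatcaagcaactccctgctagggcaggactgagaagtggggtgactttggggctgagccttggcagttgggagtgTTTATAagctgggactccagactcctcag
Apob: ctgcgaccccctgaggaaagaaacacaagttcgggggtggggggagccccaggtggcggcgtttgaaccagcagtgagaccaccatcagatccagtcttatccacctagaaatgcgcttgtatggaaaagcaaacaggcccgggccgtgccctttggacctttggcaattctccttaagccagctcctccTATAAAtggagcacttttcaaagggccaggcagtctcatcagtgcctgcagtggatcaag
The TATAAA of Fabp1 begins 30 bases before the start and that of Fabp6, on the other strand, 29 bases before it. In Apob it begins 60 bases before the start. In all of these the start is that of RefSeq. The GENCODE positions given below differ, beginning at 71199827 for Fabp1 and 7977648 for Apob and ending at 43601540 for Fabp6. The distances therefore depend on the annotation used. Fabp1 alone of the 8 held more than 1 of the motifs, its GTTAAT beginning 107 bases and its Cdx forms 227 and 89 bases before the start.

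For the comparison of age, reads were first summed over the cells of each mouse. Such a sum cannot tell more cells that hold a gene from more message per cell. Fabp1 (6:71199827-71205023), the liver-type carrier that the proximal intestine also makes, stood at 32.5, 39.6 and 41.2 CPM in young mice 1 to 3. In aged mice 1 to 4 it stood at 18.6, 303, 170 and 142 CPM. Aged mouse 1 thus lay below all young mice and the other three aged mice far above them. The mean was 37.8 ± 4.65 CPM in young (SD, n = 3) and 159 ± 117 CPM in aged mice (SD, n = 4). The fitted log2 fold change of aged over young was 2.13 (SE 0.69), with an unadjusted p of 0.0122 and an adjusted p of 0.776 in edgeR. Without aged mouse 1 it was 2.5, with an adjusted p of 0.0455 in edgeR. In these sums deeper cells weigh more. With each cell weighted equally, mean Fabp1 over the cells of aged mouse 1 was 77.5 CPM, above the young mice at 38.6 to 47.1 CPM. Of that CPM 85.2% lay in 3 of its 189 cells, each at 1000 CPM or more. In young mice such cells held 62% to 81.1%. Over the other cells of aged mouse 1 the mean was 11.7 CPM, within the young range of 7.38 to 18 CPM.

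Fabp2 (3:122895072-122899506), the intestinal-type carrier, was at 118, 72.6 and 90.7 CPM in young mice 1 to 3, and at 103, 289, 240 and 267 CPM in aged mice 1 to 4. Of the aged mice only aged mouse 1 fell within the young range. As a mean over cells, aged mouse 1 stood at 182 CPM, above the young mice at 78.5 to 130 CPM. In aged mouse 1, 4 cells at 1000 CPM or more held 62% of this CPM, and such cells held 29.5% to 61.2% in young mice. The log2 fold change of Fabp2 was 1.31 (SE 0.35, adjusted p = 0.569 in edgeR), and the adjusted p was 0.0276 in DESeq2. Fabp6 (11:43596049-43601540) read 98.4, 22.1 and 26.9 CPM in young and 6.37, 109, 34.3 and 139 CPM in aged mice. Its groups overlapped widely, and the highest young mouse owed 97.9% of its CPM summed over cells to 2 cells. The log2 fold change of Fabp6 was 0.61 (SE 0.88, adjusted p = 1 in edgeR), 1.47 with cells weighted equally and 0.06 to 1.64 when 1 mouse was left out, the extremes being without aged mouse 4 and without young mouse 1. It was 0.02 without the enterocyte-led cells.

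For the apolipoproteins of the chylomicron surface aged mouse 4 was the highest. Apoa1 (9:46228580-46230466), also the main protein of high density lipoprotein, was at 153, 57.7 and 87.6 CPM in young and at 93.6, 356, 212 and 504 CPM in aged mice. Apoa4 (9:46240696-46243459) was at 85.6, 91.1 and 77.9 CPM in young and at 77, 311, 126 and 416 CPM in aged mice. Apoc3 (9:46232933-46235636), an inhibitor of lipoprotein lipase, was at 8.17, 3.95 and 3.35 CPM in young and at 5.84, 26.5, 10.4 and 35.7 CPM in aged mice. In the sums of each of these genes aged mice 2, 3 and 4 lay above every young mouse and aged mouse 1 did not. With each cell weighted equally, aged mouse 1 lay above every young mouse too. Its mean over cells was 230 CPM for Apoa1, against 61.1 to 180 CPM in young mice. For Apoa4 it was 160 against 73.7 to 99.1 CPM, and for Apoc3 12.1 against 4.5 to 8.8 CPM. In aged mouse 1, 7 cells at 1000 CPM or more held 96.5% of the Apoa1 CPM, and 4 held 89.4% of the Apoa4 CPM. Of its Apoc3 CPM the highest 5% of cells held 96.3%. In young mice these shares were 89.9% to 96.1%, 77.8% to 92.9% and 83.5% to 95.9%. The log2 fold changes were 1.6 (SE 0.55) for Apoa1, 1.52 (SE 0.51) for Apoa4 and 1.99 (SE 0.63) for Apoc3, with adjusted p of 0.808, 0.808 and 0.746 in edgeR. In DESeq2 the adjusted p of Apoc3 was 0.041. The genes are neighbours within 14880 bases of chromosome 9 (GRCm38).

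Apoa4 shares its place with other annotated genes. The antisense gene Gm10680 (9:46242621-46243529, - strand) overlaps the end of Apoa4 and held a number of reads equal to 53.6% of those of Apoa4, and Gm47528 (9:46239841-46242032, - strand) 11.7%. Over cells their log2(CPM + 1) followed that of Apoa4 with a mean within-mouse r of 0.9 and 0.76. The sources used do not state whether the counting used strand, so reads of Apoa4 and of these genes cannot be told apart. These genes were named after their values were seen. Mttp overlaps Trmt10a and the antisense gene Gm43691, and Fabp2 the antisense gene 4933405D12Rik, with reads equal to 16%, 5.38% and 0.634% of the member's.

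The genes of particle assembly had the smallest fold changes. Apob (12:7977648-8016835), the structural protein of the chylomicron, was at 308, 307 and 332 CPM in young and at 261, 360, 223 and 410 CPM in aged mice, so the aged values lay on both sides of the young. Mttp (3:138089854-138144968), the transfer protein, was at 48.3, 51.4 and 58.1 CPM in young and at 38.1, 91.8, 97.2 and 63.2 CPM in aged mice. Dgat1 (15:76502015-76511953) was at 132, 137 and 151 CPM in young and at 117, 175, 166 and 166 CPM in aged mice. Their log2 fold changes were 0.05 (SE 0.22), 0.52 (SE 0.30) and 0.21 (SE 0.18), each with an adjusted p of 1 in edgeR. The direction for Apob turned with library size alone as the scaling, to -0.0084. Cd36 (5:17781690-17888801), the surface receptor, was at 1.13, 1.32 and 3.03 CPM in young and at 0.743, 5.99, 4.07 and 6.09 CPM in aged mice (log2 fold change 1.26, SE 0.67, adjusted p = 1 in edgeR).

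**Figure D2:**
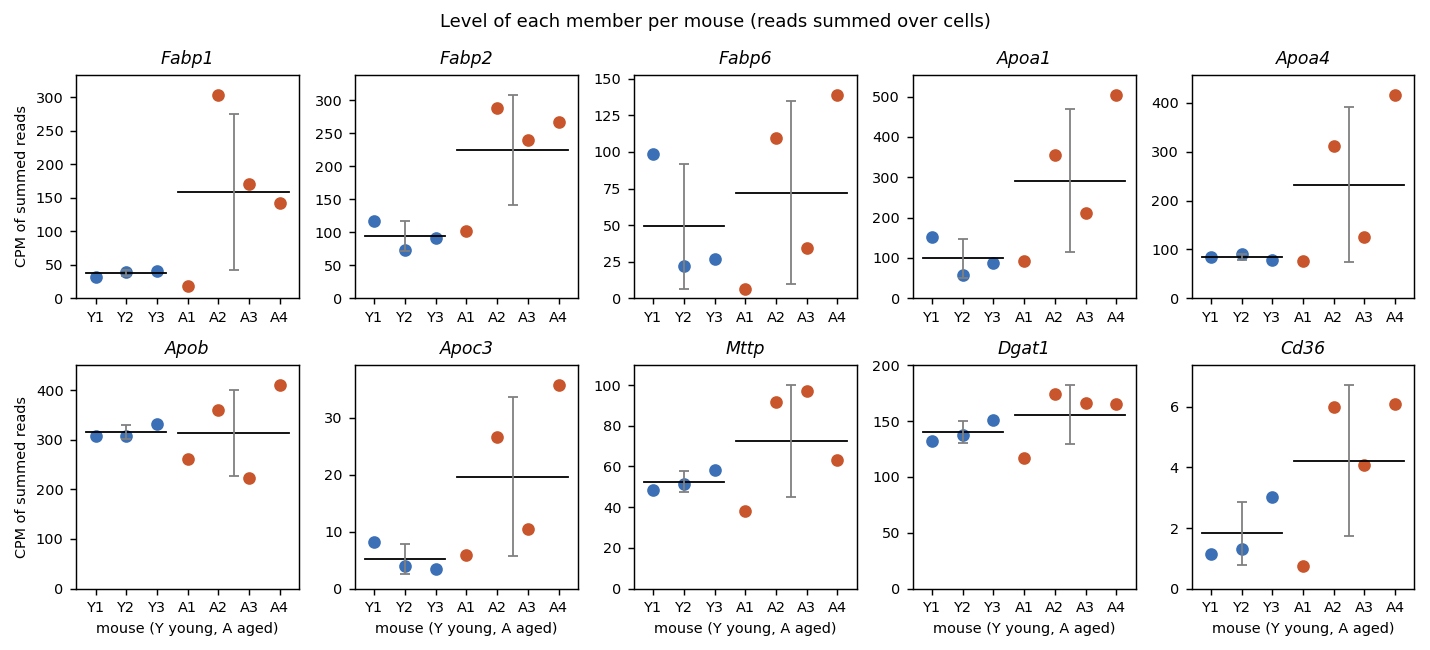
CPM of the reads summed over the cells of each young (Y1 to Y3, blue) and aged mouse (A1 to A4, orange), one panel per gene with its own axis from 0, with the group mean (line) and SD (bar). Aged mouse 1 sits within or below the young mice in every panel.

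By edgeR 0 of the 10 genes passed the threshold of 0.05 on the adjusted p, as did 0% of all 20957 genes tested. An unadjusted p under 0.05 was met by 5 of the 10 (Fabp1, Fabp2, Apoa1, Apoa4 and Apoc3), all higher in aged mice, against 2.7% of all genes higher in aged mice at that p. With lane as a block 2 met it, Fabp2 (p = 0.0078) and Apoc3 (p = 0.0492), and Fabp1, Apoa1 and Apoa4 had p of 0.203, 0.141 and 0.364 in edgeR. With the replicate block 1 did, Fabp2 (p = 0.0448). All 10 fold changes were above 0, as were 51.7% of those of all genes, and with library size alone 9 were. The median log2 fold change of the 10 was 1.29, beside 0.01 over all genes tested. In DESeq2 2 of the 10 passed, Fabp2 and Apoc3, against 0.558% of all genes called higher. Without aged mouse 1 edgeR called 1, Fabp1, against 0.023% of all genes called higher. None of the 10 sums separated the mice by age without overlap, as 1.82% of all genes did with aged mice higher and 4.09% with aged mice lower. Fabp1, Fabp2, Fabp6, Apoa1 and Apoa4 are in a list that the study chose on these cells by their age, so their direction is not independent evidence.

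Of the 5 sequencing lanes, 3 held mice of both ages. In the lane of aged mouse 2 all 10 genes were above the cells of young mouse 2 sequenced with it. In that of aged mouse 3, 8 of the 10 were above young mouse 1, Apob and Fabp6 being below. In that of aged mouse 1, only 3 were above the other cells of young mouse 2. Young mouse 3 and aged mouse 4 had a lane each, where lane and mouse cannot be told apart.

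The sums were then split into cells with a high level, at least 1000 CPM of a gene, and all other cells. The mean share of high cells was larger in aged mice for each gene but Cd36, which had none, and over all cells no difference passed the exact test. Cells high in Apoa1 were 2.5%, 0.811% and 2.13% of young mice 1 to 3, and 3.7%, 10.8%, 7.41% and 10.7% of aged mice 1 to 4. For Fabp2 the shares were 1.25%, 0.811% and 1.86% in young and 2.12%, 8.06%, 4.23% and 8.74% in aged mice. For Fabp1 they were 0.625%, 0.811% and 1.06% in young and 1.59%, 7.53%, 5.29% and 5.19% in aged mice. In these genes every aged mouse, aged mouse 1 included, lay above every young mouse. The differences of the mean shares were 6.32, 4.48 and 4.07 percentage points, each with p = 0.0571 in the exact two-sided permutation test over the 35 divisions of the mice, whose smallest p is 0.0286. The separation held at this cut and at neither of the others tried. With the cut at 300 CPM the shares overlapped, at 0.811% to 1.88% in young and 1.59% to 11.8% in aged mice for Fabp1, 0.811% to 6.88% and 5.29% to 19% for Fabp2, and 1.08% to 3.75% and 3.7% to 13.9% for Apoa1, while Fabp6, Apoc3 and Mttp separated. With the cut at 3000 CPM only Apoa4 did. How many of all genes separated at these other cuts was not counted. When cells were thinned to 100000 reads, which leaves out the 104 shallower cells, aged mouse 1 fell to 1.81%, 0.602% and 0% for Apoa1, Fabp2 and Fabp1, and none of these genes separated the groups. Without the enterocyte-led cells Fabp1, Fabp2, Fabp6, Apoa1 and Apoa4 did, beside 7.12% of the 323 genes with at least 1% of all cells at that level, and Fabp6 had p = 0.0286 in the exact permutation test.

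Over all cells, 6.5% of those 323 genes separated the groups with aged mice higher. Apoc3, Mttp, Dgat1 and Cd36 were too rare to enter that count. The 1% was taken over young and aged cells together, so a gene can enter mainly through its aged cells. Fabp1 had 8 high cells in young and 46 in aged mice, and Fabp6 7 and 29. The choice of these 323 genes thus depends on the values compared. Cells high in Apoa4 rested at 0.811% to 2.5% in young and 2.12% to 7.65% in aged mice, those high in Fabp6 at 0.541% to 1.25% and 1.06% to 5.19%, and those high in Apob at 0.811% to 3.75% and 2.12% to 9.02%. These ranges overlapped, with p of 0.0857, 0.0857 and 0.143 in the exact permutation test. Apoc3 had 0 high cells in young and 9 in aged mice, 8 of them in aged mouse 4. Mttp had 3 and 5 high cells, Dgat1 4 and 12, and Cd36 none in either group. These counts rest on few cells (p of 0.429, 0.171 and 0.257 for Apoc3, Mttp and Dgat1 in the exact permutation test).

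The cells below the cut gave another picture. Fabp6 averaged 0.86, 0.741 and 4.01 CPM there in young mice 1 to 3 and 7.33, 18.5, 14.5 and 4.94 CPM in aged mice 1 to 4. No aged mouse overlapped a young one, and aged mouse 1 was well above the young. The means were 1.87 ± 1.85 CPM (SD, n = 3) and 11.3 ± 6.27 CPM (SD, n = 4), a difference of 2.13 in the mean over mice of log2(mean CPM + 1), with p = 0.0286 in the exact two-sided permutation test, the smallest it can give. With the cut at 3000 CPM that p was 0.0571. Apoc3 was at 4.5 to 8.8 CPM in young and 12.1 to 33.8 CPM in aged mice, also without overlap, with p = 0.0571 in the exact permutation test, and it overlapped with the cut at 300 CPM. An exact p under 0.05 with aged mice higher was met by 0.893% of 20950 genes, and separation with aged mice higher by 2.19%. At the cut of 1000 CPM over all cells 20 such exact tests were made on the members, 2 per gene, and 1 was under 0.05. The test of the share of cells high in Cd36 could give no result, since that share was 0 throughout. The alternatives added further exact tests, not counted here. Among them the share of cells high in Fabp6 without the enterocyte-led cells also had p = 0.0286 in the exact permutation test.

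Apob went the other way in the cells below the cut. It averaged 265, 281 and 305 CPM in young and 239, 274, 215 and 230 CPM in aged mice, where only aged mouse 2 reached into the young range. The difference was -0.25 in the mean over mice of log2(mean CPM + 1), with p = 0.0857 in the exact permutation test. For Apob the differences in high cells and in the rest thus had opposite signs, and neither passed the test. The sign in high cells depends on the cut and the cells, since with the cut at 300 CPM the aged minus young share was -9.86 percentage points (p = 0.0857 in the exact permutation test) and in ISC-led cells the difference was -0.245. Fabp2 averaged 48 to 91.9 CPM in young and 70.5 to 176 CPM in aged mice below the cut, and Mttp 49.2 to 54 and 40.8 to 94.2 CPM, with p of 0.0857 and 0.229 in the exact permutation test.

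**Figure D3:**
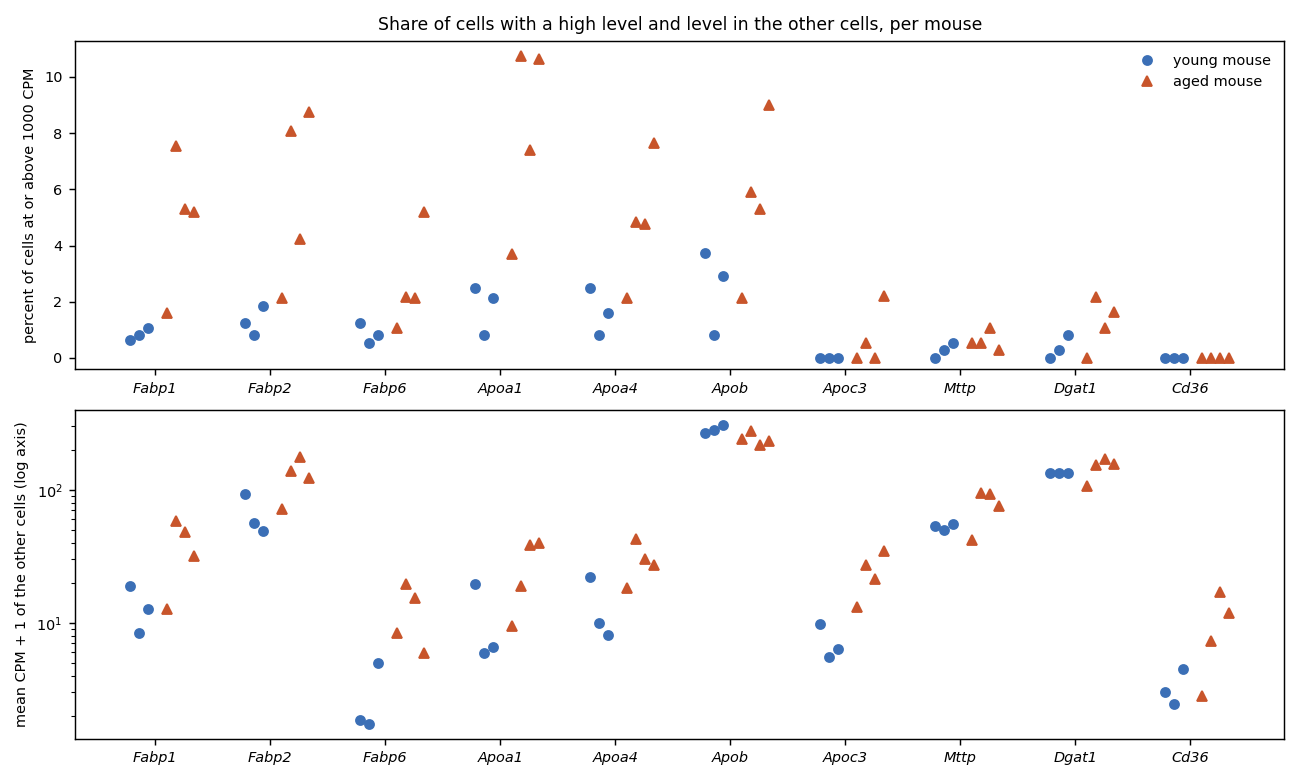
Top, percent of cells of each mouse at or above 1000 CPM of each gene, and bottom, the mean CPM + 1 of the other cells on a log axis, with young mice as circles and aged mice as triangles in the order of their numbers. In the top panel all aged mice lie above all young mice for Fabp1, Fabp2 and Apoa1, and in the bottom panel for Fabp6 and Apoc3, while Apob is lower in 3 of 4 aged mice.

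As means over cells, the high cells held most of the difference between aged and young mice for Apoa1, Apoa4, Fabp6, Fabp1 and Fabp2, and not for Apoc3, Mttp, Dgat1 and Cd36. Of a difference of 358 CPM per cell for Apoa1, 96.1% lay in high cells, of 278 CPM for Apoa4 94.6%, of 97.1 CPM for Fabp6 90.5% and of 197 CPM for Fabp1 88.7%. For Fabp2 it was 71.6% of 192 CPM, for Apoc3 35.5% of 25.8 CPM, for Dgat1 48.7% of 22 CPM and for Mttp 16% of 27.6 CPM. No cell reached the cut for Cd36, whose maximum was 709 CPM, so its difference of 6.48 CPM fell in the other cells by definition. Those cells did not share Cd36 and Apoc3 evenly. The highest 5% of cells of a mouse held 76.4% to 100% of its Cd36 CPM and 77.7% to 96.3% of its Apoc3 CPM. For Apob the high cells added 104 CPM and the other cells lost 50.4 CPM.

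The share of cells with any read told the groups apart for Fabp6 and Fabp2. Fabp6 was detected in 6.88%, 12.4% and 11.4% of cells of young and in 21.2%, 26.9%, 37% and 29.8% of cells of aged mice. After each cell was thinned to 100000 reads these shares were 5.48%, 6.25% and 6.72% against 12.7%, 17.9%, 22.2% and 19.1%, again without overlap. Inside each of the lanes with both ages the aged mouse had the larger share too, 21.2% against 8.15%, 26.9% against 16.7% and 37% against 6.88%. Fabp2 was detected in 77.9% to 83.8% of young and 86.2% to 97.8% of aged cells, and after thinning its ranges met, at 72.3% to 81.5% and 80.7% to 96.5%. Thinning instead separated Fabp1, at 18.5% to 24% and 24.1% to 59.2%, and Apoa1, at 15.6% to 29.5% and 29.5% to 56.3%. Here young mouse 1 and aged mouse 1 nearly met, at 23.97% and 24.1% for Fabp1 and 29.45% and 29.52% for Apoa1. Before thinning, separation of the detected share with aged mice higher was seen in 2.41% of all genes tested. How many of all genes separated after thinning was not counted. Fabp1 was detected in 25.8% to 33.8% of young cells, in 29.6% of those of aged mouse 1 and in 58.7% to 68.8% of those of the other aged mice.

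High levels came together in the same cells. In all, 109 cells (5.94%) were high in at least 1 of the 10 genes, 81 in at least 3 and 47 in at least 5. These 109 were 6, 3 and 11 cells of young mice 1 to 3 and 7, 21, 17 and 44 cells of aged mice 1 to 4, which is 0.811% to 3.75% and 3.7% to 12% of their cells. Young mouse 1 and aged mouse 1 thus met, and the other aged mice stood higher. Of the cells high in Fabp1, 96.3% were also high in Apoa1, 83.3% in Fabp2 and 75.9% in Apoa4. Apoa1 was the most common partner, being high in 97.2% of the cells high in Fabp6 and 98.4% of those high in Apoa4.

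**Figure D4:**
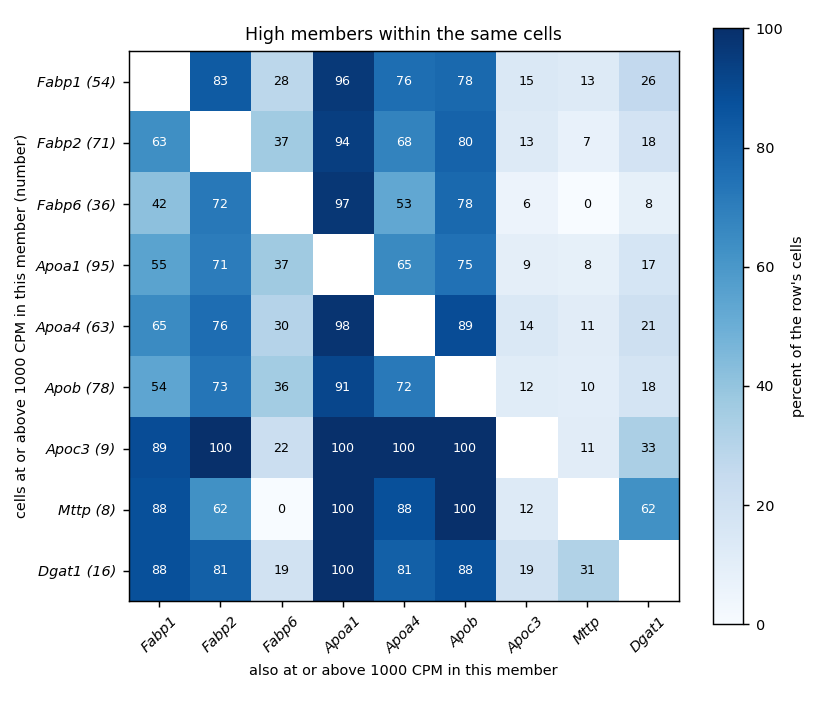
For the cells at or above 1000 CPM in the gene of each row (number of cells in brackets), the percent also at that level in the gene of each column, rounded to whole percents. The column of Apoa1 is at 91% or more in every row, and between Fabp1 and Fabp6 only 27.8% and 41.7% of the cells are shared.

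Fabp1 and Fabp6 were high in partly different cells. Of the 75 cells high in either, 39 were high in Fabp1 only, 21 in Fabp6 only and 15 in both. Markers of the distal and proximal small intestine were set beside this split. Slc10a2, the ileal bile acid uptake carrier, had a median of 190 CPM in cells high in Fabp6 only, 133 in cells high in both and 0 in cells high in Fabp1 only, with reads in 18 of 21, 13 of 15 and 9 of 39 cells. Slc51a, a subunit of the bile acid export carrier, had medians of 691, 342 and 131 CPM in the same order, and its partner Slc51b 188, 143 and 47.6 CPM. Lct, the lactase of the more proximal gut, had medians of 150, 486 and 485 CPM, and Apoa4 296, 3648 and 4877 CPM. Slc40a1, the iron exporter and also on the proximal list, went the other way, with medians of 18.9, 17.4 and 0 CPM and reads in 16, 10 and 19 of the cells. Gata4, a proximal transcription factor, differed little at 26.9, 42.5 and 35.3 CPM, and it was read in 18, 14 and 36 of the cells. Fabp2 and Apoa1 were abundant in each kind, with medians of 1394 to 2432 and 4521 to 6345 CPM. Aged mouse 4 gave 12 of the 39, 12 of the 21 and 7 of the 15 cells, and aged mouse 2 gave 13, 3 and 1, so the mice contributed unequally. These are descriptions of cells of 7 mice, and the cells are not replicates.

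Of the 109 cells, 56 were led by enterocyte markers and 17 by ISC markers. Of the 54 cells high in Fabp1, 31 were led by enterocyte, 11 by Paneth, 7 by goblet and 5 by ISC markers. Lgr5 was read in 94 of the 109. Its median was 53 CPM in cells high in Fabp1 and 312 CPM in the rest, and that of Olfm4 was 1875 and 14808 CPM. Cells high in these genes therefore still carried the gene used for the sort, at a lower level. Cells high in Fabp1 were also shallower, with a median of 167829 reads against 309678 for the rest, while the number of detected genes was 9636 and 9394. Cells high in Fabp2, Fabp6, Apoa1, Apoa4, Apob, Apoc3 and Dgat1 were shallower too, with medians of 176434 (Fabp6) to 293591 reads (Dgat1). Only the 8 cells high in Mttp were not, at 333007 reads against 305492. The part of these differences in depth in the results was not tested.

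Enterocyte-led cells held the members at levels far above ISC-led cells of the same mouse. Mean Apoa1 over the enterocyte-led cells of a mouse was 4287 to 9446 CPM, against 5.23 to 109 CPM over its ISC-led cells. For Fabp1 it was 1395 to 6362 CPM against 5.9 to 53.4, and for Apob 1466 to 3747 against 245 to 321 CPM. The other genes and these, 9 in all, were higher in enterocyte-led cells in 7 of 7 mice, and Fabp6 in 6 of 7, young mouse 2 having a single enterocyte-led cell with no Fabp6 read. Enterocyte-led cells numbered 1 to 9 in each mouse but aged mouse 4, which had 31. Within enterocyte-led cells the young and aged ranges of all 10 genes overlapped, as for Fabp1 with 1395 to 6362 CPM in young and 2105 to 5313 in aged mice.

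**Figure D5:**
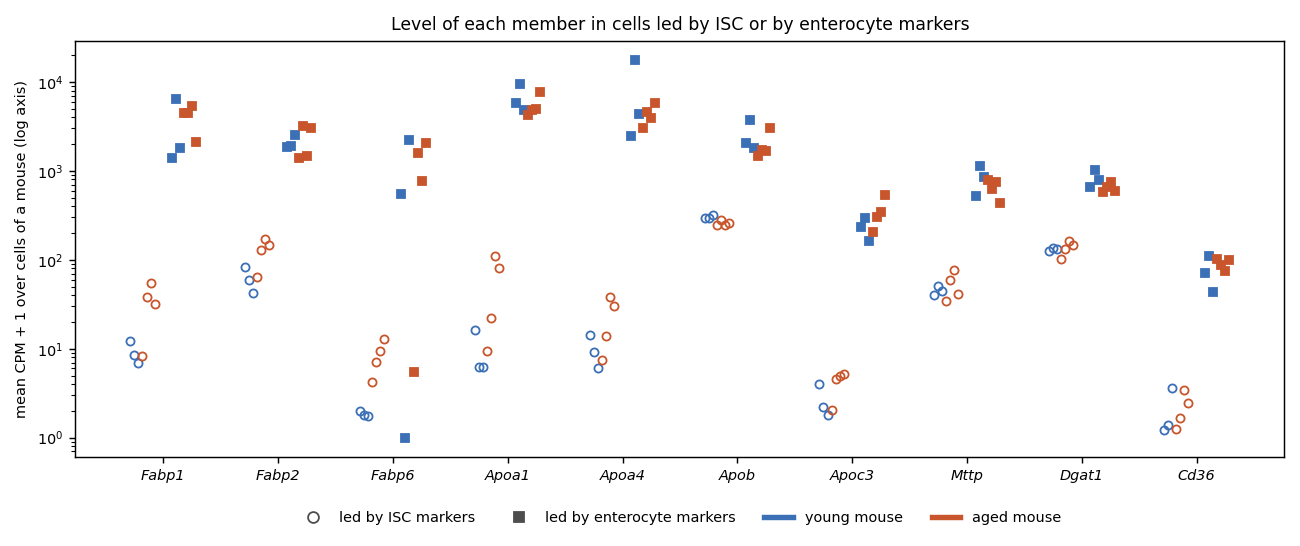
Mean CPM + 1 of each gene on a log axis over the ISC-led cells (open circles) and the enterocyte-led cells (filled squares) of each young (blue) and aged (orange) mouse, in the order young 1 to 3 and aged 1 to 4 from left to right. Squares lie above circles for every gene except for Fabp6 in young mouse 2, and the ISC-led circles of Fabp6 separate by age.

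Among ISC-led cells the picture by age was the following. Fabp6 averaged 0.984, 0.779 and 0.772 CPM over the ISC-led cells of young mice and 3.25, 6.01, 8.32 and 12 CPM in aged mice, without overlap. The log2 fold change over the summed reads of these cells was 3.41, with an adjusted p of 0.106 in edgeR. Fabp1 averaged 5.9 to 11.1 CPM in young and 7.31 to 53.4 CPM in aged mice, and Apoa1 5.23 to 15.2 and 8.5 to 109 CPM, and in both aged mouse 1 lay within the young range. Apob averaged 293 to 321 CPM in young and 245 to 277 CPM in aged mice, lower in each aged mouse than in any young one. Its log2 fold change in these cells was -0.22, with an adjusted p of 1 in edgeR. How many of all genes separate the mice in ISC-led cells was not counted. In the reads summed over all cells 1.82% did with aged mice higher and 4.09% with aged mice lower. Of the 1544 ISC-led cells, 17 were high in any member, 5 of 826 in young and 12 of 718 in aged mice. The 5 young cells were high in Apob alone of the 10 genes.

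Cd36 was also found in cells led by other markers. Only 31 cells reached 100 CPM, and 21 of them were led by enterocyte markers, 3 by ISC markers and 3 by endothelial markers. Endothelial cells are known to express Cd36. All 4 endothelial-led cells of the data were in aged mouse 3, and without them its Cd36 was 3.56 instead of 4.07 CPM, still above the highest young mouse at 3.03 CPM.

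For some members the genes with the most similar pattern were sought, as the mean of the within-mouse Pearson r of log2(CPM + 1) over cells in the 7 mice, among 17049 genes with a read in at least 5% of cells. The genes most like Fabp1 were 2010106E10Rik, Rbp2, Alpi, Spink1 and Slc15a1, with r of 0.54 to 0.58. Rbp2 is the carrier of retinol in enterocytes, Alpi the intestinal alkaline phosphatase and Slc15a1 the peptide transporter of the brush border. Apoa1 had Slc15a1, Ggt1, 2010106E10Rik, Alpi and Slc13a2 at 0.67 to 0.7. Fabp6 was most like Tmigd1, Prss30, Plb1, Mgat4c and 2010106E10Rik, at 0.52 to 0.6. Cd36 was most like Gdpd2, Slc13a2, Slc6a19, Slc28a1 and Ggt1, at 0.58 to 0.62, with a lowest value in a single mouse of 0.24. The broad genes had weaker and other partners. Apob was most like the glucose carrier Slc5a1, the microvillus protein Vil1, Cs, Cdh17 and Hadh, at 0.42 to 0.46, and Fabp2 was most like Prap1, Ces2e, Fuom, Crip1 and Fabp1, at 0.45 to 0.51. Among the members the closest pair was Apoa1 and Apoa4 at 0.62, then Apoa1 and Apoc3 at 0.58 and Apoa4 and Apoc3 at 0.57. Fabp6 with Dgat1 was the weakest at 0.15. These r share the depth and library of each cell and carry no test.

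Of 30 further genes of lipid absorption, all tested, 0 passed the threshold in edgeR in either direction, 21 had a fold change above 0, and 5 an unadjusted p under 0.05. Their median log2 fold change was 0.15, and that of all genes 0.01. The lowest p among those higher in aged mice were those of Tm6sf2, a gene of lipoprotein export (log2 fold change 0.78, p = 0.00465), of Rbp2 (1.90, p = 0.00802) and of Agpat2, an enzyme of phosphatidic acid synthesis (0.47, p = 0.0268), all unadjusted in edgeR. Tm6sf2 stood at 38.1, 43.4 and 37.3 CPM in young and 43.5, 78.5, 69.2 and 69.2 CPM in aged mice, without overlap. The lowest p among those lower in aged mice were those of the sterol exporter subunits Abcg8 (-0.33, p = 0.0673) and Abcg5 (-0.52, p = 0.0888) and of Slc27a2, an acyl-CoA synthetase (-0.42, p = 0.0882), in edgeR. Abcg8 was at 39.3 to 42.7 CPM in young and 27.2 to 38.6 CPM in aged mice, also without overlap. Of all genes tested 1.82% separated the groups with aged mice higher and 4.09% with aged mice lower.

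Of the 7 other fatty acid binding proteins only Fabp5 and Fabp3 had enough reads to be tested, and Fabp7, Pmp2 and Fabp9 had no read in any cell. Fabp5 was at 3.91 to 7.58 CPM in young and 3.91 to 11.3 CPM in aged mice, and Fabp3 at 0.268 to 0.404 and 0.242 to 0.545 CPM. Of 14 other apolipoproteins 9 were tested, 7 had a fold change above 0, and 0 passed. Their median log2 fold change was 0.26. Apol7a (0.97, p = 0.0227), Apoo (0.41, p = 0.0378) and Apol9a (1.19, p = 0.0784) had the lowest p among those higher and Apom (-1.74, p = 0.122) and Apoe (-0.22, p = 0.573) among those lower in aged mice, unadjusted in edgeR. Apoo is a protein of the mitochondrial cristae in spite of its name, and it separated the groups at 22.5 to 23.8 against 27.1 to 35.3 CPM.

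Of 15 transcription factors that act on these genes, 0 passed in edgeR, 11 had a fold change above 0, and the median log2 fold change was 0.17. Hnf4a, a main regulator of the apolipoproteins, was at 265 to 417 CPM in young and 273 to 336 CPM in aged mice (log2 fold change -0.03, SE 0.17). Ppard, a fatty acid receptor, was at 30.7 to 33 CPM in young and 16.8 to 28.4 CPM in aged mice. It was lower without overlap (-0.51, p = 0.0297 unadjusted in edgeR), as were 4.09% of all genes tested. After it came Cdx2 (-0.18, p = 0.28) and Gata6 (-0.04, p = 0.782). Pparg (1.12, p = 0.0518), Maf (0.83, p = 0.16) and Nr1h3 (0.35, p = 0.209) had the lowest p among those higher, unadjusted in edgeR.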

How the data were processed

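Single Lgr5-high cells were sorted into 384-well plates and sequenced single-end after Smart-seq2 amplification. The deposited values are raw read counts per gene and cell, which the authors made with HISAT2 on GRCm38 and, per the submitters' processing notes, HTSeq. The tool versions, annotation and strand setting were not given in the sources used here. Symbols and positions came from GENCODE M21 (55230 of 55471 IDs matched).

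A minimum of 1000 detected genes left 1836 cells (1695 to 1733912 reads each). No doublet caller was run, and the mouse was the replicate. Labels do not say more of how the mice were handled, so p-values measure the spread between these mice. Counts were summed per mouse (49447464 to 134408884 reads) and tested with edgeR 4.0.16 (quasi-likelihood, TMM, filterByExpr, Benjamini-Hochberg over 20957 genes, threshold 0.05), with DESeq2 1.42.0 and limma 3.58.1 as alternatives in R 4.3.3. Shares of cells at or above 1000 CPM and log2(mean CPM + 1) of the other cells were compared by exact two-sided permutation of mice (p unadjusted), in Python 3.11.15 with scipy 1.17.1. The scripts were tested on simulated data. Counting error alone is larger in shallow cells.

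The members and lists were chosen with earlier results of these data known. All members were named, with the 5 genes most similar to 6 of them, and from the other lipid lists the genes past the threshold or else the 3 with the lowest p in each direction. The genes overlapping members were named after their values were seen. Alternatives changed the scaling, filter, cut, depth, cell set, tool and blocks, and left out each mouse. The alternative without enterocyte-led cells was chosen after seeing the data.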

Additional observations from a re-analysis of the deposited data

Results flagged for a closer look

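Dgat1 in aged mouse 1 stood apart from the other aged mice. Its CPM of the summed reads was 117, against 166 to 175 in the other aged mice, and the gap to the nearest was 0.846 of the whole range, above Dixon's critical value. Of 29 groups of values checked this was the 1 past that limit, and chance alone gives about 1 in 20.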

How the results depend on the processing

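The number of members called was 0, 2 in DESeq2 (Apoc3 and Fabp2) and 0 to 1 when 1 mouse was left out (Fabp1 without aged mouse 1). The median log2 fold change of 1.29 ranged from 1.04 to 1.58 with 1 mouse left out, and was 0.73 in ISC-led cells. The number of members whose share of high cells separated the groups was 3. It was also 3 with the cut at 300 CPM, but of other genes (Fabp6, Apoc3 and Mttp), 1 with the cut at 3000 CPM (Apoa4), 0 after thinning, 0 in ISC-led cells, 5 without enterocyte-led cells and 3 to 7 with 1 mouse left out (5 without young mouse 1, 7 without aged mouse 1). For the level below the cut it was 2, then 1 with the cut at 300 CPM, 4 at 3000 CPM and 1 for the mean of log2(CPM + 10). With 1 mouse left out it was 2 to 8 (5 without young mouse 1, 8 without aged mouse 1). Of the 323 genes with enough high cells 6.5% separated by that share over all cells, and 7.12% without enterocyte-led cells. By the level below the cut 2.19% of all genes did. Under the other alternatives the share of all genes was not counted, so those member counts have no background. The log2 fold change of Apob turned to -0.0084 with library size alone, -0.15 with the replicate block, -0.10 with lane as a block, -0.22 in ISC-led cells, -0.15 without enterocyte-led cells, and ranged from -0.12 to 0.19 with 1 mouse left out. That of Fabp6 turned to -0.095 with the replicate block. The aged minus young share of cells high in Apob turned to -9.86 percentage points with the cut at 300 CPM and -0.245 in ISC-led cells, and that of Mttp to -0.0981 after thinning. The cause of these changes was not tested. Of the values of single members under the alternatives, 406 kept their direction and side of the threshold, 11 changed sign, 8 fell out of the threshold and 5 came within it. The exact tests with a mouse left out enter these counts, though that design cannot reach 0.05. Their side of the threshold was thus fixed in advance, and the counts do not measure how firm the results are. With a mouse left out the exact test of Fabp6 below the cut gave p of 0.0667 to 0.133, where that design cannot reach 0.05.

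Same-numbered young and aged mice deviated together with r of -0.016, 0.107 and -0.11, so the numbers do not pair the mice, and not every mouse correlated best with its own number. Aged mice 1, 2 and 3 each had their highest r with the young mouse of their lane, at 0.061, 0.107 and 0.143. The highest of all was 0.205, between young mouse 3 and aged mouse 4, which were in separate lanes. The part of lane in these r was not tested. With the replicate block 0 members were called and the median was 0.76.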
